A study of Homo sapiens with 15 samples.

Results

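The aldo-keto reductases described here are 8 genes of the family, chosen by their names: AKR1A1, AKR1B1, AKR1B10, AKR1B15, AKR1C1, AKR1C2, AKR1C3 and AKR7A2. All 8 were found among the 43388 gene symbols of the count files, and all 8 passed the filter on low counts. The RNA came from A549 cells, an established line from a human lung adenocarcinoma with alveolar epithelial features. RNA-seq was done after 72 h in hyperoxia (95% oxygen) or normoxia (21% oxygen). At each oxygen exposure, 3 libraries received all-trans retinoic acid (ATRA, 1e-05 mM), added 24 h before the exposure, and 2 libraries received ethanol vehicle. A further 2 libraries per exposure carry labels that name neither ATRA nor vehicle, and they are called untreated here, although the treatment protocol speaks only of ATRA or vehicle. All cells were wild type by their labels, they grew in medium with fetal bovine serum, and they represent 1 tumour cell line, so the groups model neither primary alveolar cells nor donors. Nothing in the labels says that libraries of a group came from separate cultures, so the p-values measure only the spread between these libraries, which may be technical.

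Aldo-keto reductases are cytosolic enzymes that use NADPH to reduce aldehydes and ketones, among them sugars, lipid peroxidation products, steroids, prostaglandins and retinal. Several of the genes are textbook targets of NRF2, the transcription factor of the electrophile response, and A549 cells lack working KEAP1, the protein that normally marks NRF2 for destruction. AKR1B1 and AKR1B10 can both reduce retinal to retinol, a step that draws from the same retinal pool from which retinoic acid is made.

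Counts on genes numbered between 2642377 and 5605072 in the 14 libraries with a group, and the 8 reductases took 0.574% to 1.08% of them. Levels are given as CPM, the usual count relative to library size, after TMM normalization, which corrects the library sizes for differences in RNA composition. The strand setting of the counting is not given in the sources used here and may have been opposite to that of the kit, since TALAM1, the antisense partner of MALAT1, had 1.87 to 2.01 times the counts of MALAT1. The levels and changes of all 8 genes are therefore those of the deposited counts, and whether these measure the genes' own strand was not settled. A count of 3, the limit below which a gene was taken as not detectable, corresponds to 0.535 to 1.14 CPM. The labelled cell type was checked with marker genes: 5 epithelial markers summed to between 1685 and 9562 CPM, whereas sums of fibroblast, endothelial, leukocyte and adipocyte markers did not exceed 15.3 CPM in any library. Markers of alveolar type II cells, 8 genes, summed to between 50.5 and 155 CPM. Among them ABCA3 had a median of 94.9 CPM and NAPSA of 0.912 CPM, and the surfactant protein genes and SLC34A2 had a median of 0. The check therefore speaks for epithelial cells and not for type II cells. In the first principal component of the 14 libraries, 1 untreated hyperoxia library (replicate 1) lay at -199 while the others lay between -9.27 and 35.6. It also had the fewest genes with a count (12657), and where leaving it out turned the direction of a member's change, both values are given.

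The genes lie in clusters of near copies, which bears on how reads can be assigned to them. In RefSeq annotation of GRCh38.p14, AKR1B1 (chr7:134442350-134459239, minus strand), AKR1B10 (chr7:134527567-134541412, plus strand) and AKR1B15 (chr7:134549110-134579869, plus strand) are neighbours. AKR1C1 (chr10:4963415-4983283, plus strand), AKR1C2 (chr10:4987775-5018000, minus strand) and AKR1C3 (chr10:5048781-5107686, plus strand) form a second cluster. AKR1A1 (chr1:45550826-45570049, plus strand) and AKR7A2 (chr1:19302708-19312146, minus strand) lie apart on chromosome 1.

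The coding sequences of AKR1C1 and AKR1C2 were 98.04% identical, with 19 differing bases among 969. AKR1C3 was 91.43% identical to AKR1C1, AKR1B15 was 93.46% identical to AKR1B10, and AKR1B1 was 77.07% identical to AKR1B10. Of all 50-base stretches of the AKR1C2 transcript, 52.72% were found in no other gene and 45.7% were shared with AKR1C1, while 95.05% of those of AKR1B1 and 81.97% of those of AKR1B10 were their own. Positions that tell reads of AKR1C1 and AKR1C2 apart lie both in and outside the coding sequence, and 77.33% of the 50-base stretches of the AKR1C1 transcript were its own. The coding stretch in which the pair differs most is shown. It spans coding bases 103 to 162 (GENCODE, 5′ to 3′), and capitals mark the 10 differing bases.
AKR1C1: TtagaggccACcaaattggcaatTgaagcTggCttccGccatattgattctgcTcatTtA
AKR1C2: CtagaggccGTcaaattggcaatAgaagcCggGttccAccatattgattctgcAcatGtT
Differences between AKR1C1 and AKR1C2, and between AKR1B10 and AKR1B15, are therefore uncertain. Reads that align to either gene can be misassigned or left out of the counts.

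The promoters were examined because the members did not move alike. RefSeq promoter sequences (GRCh38.p14) were matched for 6 of the 8 genes, all but AKR1B10 and AKR1B15. The 120 bases upstream of the start site are shown for AKR1B1 (chr7:134459101-134459220, minus strand), AKR1C1 (chr10:4963295-4963414, plus strand), AKR1C2 (chr10:5003858-5003977, minus strand) and AKR1C3 (chr10:5094294-5094413, plus strand). Capitals mark a CCAAT box, which reads ATTGG where it lies on the other strand.
AKR1B1: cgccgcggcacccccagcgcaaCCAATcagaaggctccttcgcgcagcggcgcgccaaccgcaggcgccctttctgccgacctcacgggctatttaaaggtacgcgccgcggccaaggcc
AKR1C1: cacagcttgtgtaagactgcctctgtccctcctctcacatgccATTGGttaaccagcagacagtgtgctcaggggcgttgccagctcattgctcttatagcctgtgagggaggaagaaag
AKR1C2: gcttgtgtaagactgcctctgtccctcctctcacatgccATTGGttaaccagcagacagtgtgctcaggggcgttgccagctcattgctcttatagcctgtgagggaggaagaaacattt
AKR1C3: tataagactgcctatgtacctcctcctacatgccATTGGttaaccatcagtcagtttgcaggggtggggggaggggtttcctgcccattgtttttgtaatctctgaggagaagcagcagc
AKR1C1 and AKR1C2 differed in 1 of 246 aligned upstream bases, so the pair is nearly the same in this window as well as in its coding sequence. AKR1C1 and AKR1C3 were 78.63% identical over 234 aligned bases. Over 250 upstream bases on both strands, CCAAT was found in these 4 genes and in 32% of 35116 promoters. The letters TGACNNNGC, the core of the antioxidant response element that NRF2 binds, were found in AKR7A2 alone among the 6, with 3 matches, and in 10.9% of all promoters. Neither AGGTCA, a retinoid receptor half-site present in 12.1% of promoters, nor TATAAA, present in 10.7%, was found in any of the 6. The first of these motifs and AGGTCA, read on the other strand, begin with the same 4 bases, so a match of one can overlap a match of the other. A match or its absence in this window is a description only.

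AKR1B10 was the most abundant of the reductases. By raw count it ranked between 8 and 28 among all genes of a library and held 35.2% to 43.2% of the counts of the 8 members. Between genes, levels are compared only per length. Per kilobase of coding sequence, the medians over 14 libraries were 3429 CPM for AKR1B10, 1718 for AKR1C2, 1345 for AKR1B1, 1224 for AKR1C3, 502 for AKR1C1, 160 for AKR1B15, 43.5 for AKR1A1 and 18.4 for AKR7A2. On that scale the group means of AKR1C2 (1387 to 1975), AKR1B1 (778 to 2212) and AKR1C3 (993 to 1457) overlapped, so these neighbours in the order were not separated, whereas those of AKR1B10 (2402 to 4376) lay above all of them. Per kilobase of the whole transcript the order changed: AKR1C3 (1000) and AKR1B1 (937) came before AKR1C2 (518), and AKR1B15 (101) before AKR1C1 (74.4). By this length the group means of AKR1B10 (1407 to 2562) and AKR1B1 (542 to 1541) also overlapped, although AKR1B10 was higher within every group.

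**Figure D1:**
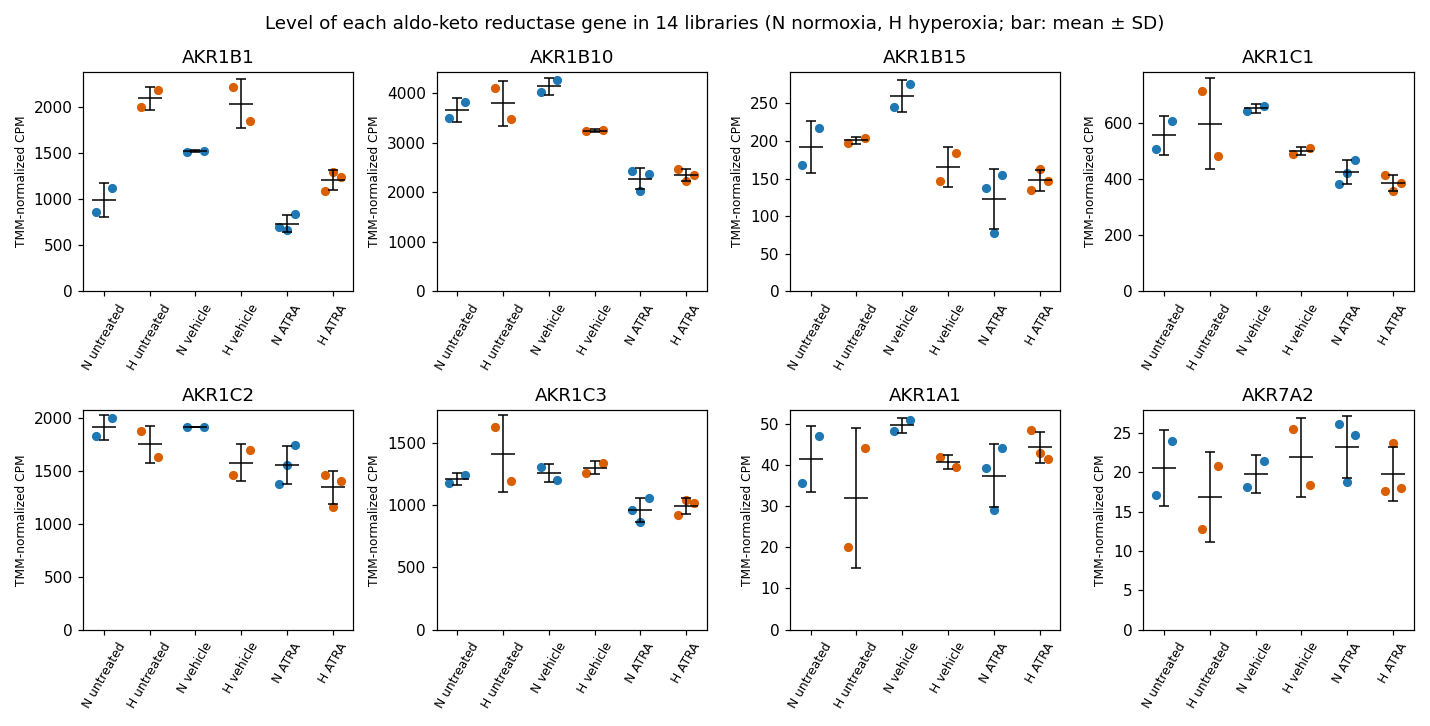
Level of the 8 aldo-keto reductases (y axis, TMM-normalized CPM, from 0) in each of 14 libraries by group (x axis; N, normoxia, blue; H, hyperoxia, orange); points are libraries and bars the mean ± SD of 2 or 3 libraries. AKR1B1 lies higher in hyperoxia than in normoxia with each treatment, and AKR1B10 lies lower in each ATRA group (2035 to 2465 CPM) than in each other group (3232 to 4271 CPM).

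The first question was how oxygen exposure alone changed the reductases, with vehicle in both arms. AKR1B1 rose in hyperoxia and AKR1B15 and AKR1C1 fell, the only 3 of 8 members that passed the test, while 17.5% of the 14957 genes tested were called. By direction, 8.68% of all genes were called higher and 8.81% lower. The median log2 fold change of the 8 was -0.28, against 0.01 over all genes.

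AKR1B1, the aldose reductase that turns glucose into sorbitol and also clears toxic aldehydes, measured 2227 and 1854 CPM in the hyperoxia vehicle libraries and 1517 and 1531 CPM in the normoxia vehicle libraries. Both hyperoxia libraries were above both normoxia libraries, and they differed more from each other than the normoxia pair did. The log2 fold change was 0.42 (SE 0.14), or 1.34-fold, with an adjusted p of 0.0399 from edgeR's quasi-likelihood test. In these bulk samples, a change in the make-up of the cells and a change in RNA per cell cannot be told apart, so that fewer cells of a type and less RNA per cell look alike. The 5 epithelial markers summed to between 1685 and 1784 CPM in the hyperoxia vehicle libraries and between 5849 and 6804 CPM in the normoxia vehicle libraries, and 4 of 5 were called lower. EPCAM, the lowest of them, was at 0 in 3 of the 14 libraries and did not exceed 4.80 CPM, and the other 4 had counts in every library. Their part in the oxygen results was not tested.

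AKR1B15, a close relative of AKR1B10, measured 147 and 184 CPM in hyperoxia and 245 and 275 CPM in normoxia with vehicle. The groups did not overlap, and the log2 fold change was -0.65 (SE 0.21, adjusted p = 0.0337). An overlapping gene model, LOC105375520, held between 1.99% and 17.2% as many counts as AKR1B15 over the 14 libraries. With vehicle the share was 6.49% and 7.18% in hyperoxia and 2.98% and 2.64% in normoxia. Its part in the AKR1B15 results was not tested.

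AKR1C1, which inactivates progesterone, measured 491 and 512 CPM in hyperoxia and 642 and 663 CPM in normoxia with vehicle. The pairs lay apart by more than the distance within each pair, with a log2 fold change of -0.38 (SE 0.13, adjusted p = 0.0464). When AKR1C1 and AKR1C2 counts were added together, the change was -0.30 (adjusted p = 0.142) and no longer passed.

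AKR1B10, which reduces retinal and aldehydes from lipid peroxidation, measured 3232 and 3269 CPM in hyperoxia and 4026 and 4271 CPM in normoxia with vehicle. The values did not overlap, but the log2 fold change of -0.35 (SE 0.12) narrowly missed the threshold, with an adjusted p of 0.0515. It was called by DESeq2 (adjusted p = 0.000532) and with RLE size factors (adjusted p = 0.0395).

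These calls with vehicle were lost in many alternatives. AKR1B1 was called in 11 of 18 alternatives, AKR1B15 in 12 and AKR1C1 in 10, and leaving out hyperoxia vehicle replicate 1, after which the arm has 1 library assumed to vary like the other groups, lost all 3 (AKR1B1 then 0.26, adjusted p = 0.48; AKR1B15 -0.52, adjusted p = 0.274; AKR1C1 -0.38, adjusted p = 0.220). AKR1B1 and AKR1C1 also lost their calls without any 1 of the other 3 vehicle libraries, AKR1B15 without either normoxia vehicle library, and AKR1B1 without hyperoxia ATRA replicate 2 or 3. Without 1 vehicle library at a time the log2 fold changes were 0.26 to 0.52 for AKR1B1, -0.85 to -0.52 for AKR1B15 and -0.44 to -0.38 for AKR1C1, while the standard errors grew. With all 14 libraries in the fit, 0 members were called in this comparison by edgeR. In the fit of 10 libraries 4 members had an unadjusted p under 0.05, as had 4265 of the 14957 genes tested. DESeq2 called 4 members, and the alternatives other than leaving out 1 library at a time, DESeq2 among them, called 1420 to 4665 genes.

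The same oxygen contrast was available in libraries that share no sample with the vehicle arm. With ATRA in both arms, AKR1B1 was the only 1 of 8 members called, while 22.7% of all genes were called (11.4% higher and 11.3% lower). It measured 1090, 1304 and 1246 CPM in hyperoxia and 699, 671 and 844 CPM in normoxia. Every hyperoxia library exceeded every normoxia library, and the log2 fold change was 0.72 (SE 0.11), or 1.64-fold (adjusted p = 9.63e-05 from edgeR). AKR1B1 was called in all 16 alternatives, with log2 fold changes between 0.63 and 0.80.

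In untreated libraries AKR1B1 was again the only member called, against 15.2% of the 15339 genes tested (7.57% higher and 7.58% lower). The median change of the 8 was 0.06 against -0.10 over all genes. AKR1B1 measured 2010 and 2185 CPM in hyperoxia and 865 and 1126 CPM in normoxia, so the groups lay far apart. The log2 fold change was 1.08 (SE 0.16), or 2.11-fold (adjusted p = 0.000280 from edgeR), and without hyperoxia replicate 1, the library that stood apart, it was 1.13 (adjusted p = 0.000124). In a fit of only these 4 libraries the value was 1.07 with an adjusted p of 0.0966, so the call was lost there.

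AKR1B1 was thus higher in hyperoxia in 7 of 7 libraries against the normoxia libraries of the same treatment. The changes of 0.42 with vehicle and 0.72 with ATRA were not shown to differ: their difference was 0.30 (SE 0.18, adjusted p = 0.802 from edgeR). The difference between the untreated change of 1.08 and the vehicle change of 0.42 was not tested. Their confidence intervals, from different fits, did not overlap (0.77 to 1.39 in untreated libraries, 0.15 to 0.69 with vehicle). The epithelial markers were lower in hyperoxia in the same libraries, with 4 of 5 called lower with ATRA (sums of 2805 to 4203 CPM against 6896 to 9562 CPM) and 3 of 5 in untreated libraries, or 4 of 5 without replicate 1 of hyperoxia (1853 to 2091 CPM against 5743 to 6841 CPM).

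AKR1B15 and AKR1C1 did not repeat their vehicle result. With ATRA, AKR1B15 measured 135, 162 and 146 CPM in hyperoxia and 137, 78.3 and 155 CPM in normoxia (log2 fold change 0.25, SE 0.17, adjusted p = 0.330). In untreated libraries it measured 197 and 204 CPM in hyperoxia against 168 and 217 CPM in normoxia (0.06, SE 0.23, adjusted p = 0.882). The values overlapped in both.

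AKR1C1 measured 415, 358 and 385 CPM in hyperoxia and 385, 422 and 469 CPM in normoxia with ATRA (log2 fold change -0.14, SE 0.11, adjusted p = 0.393). In untreated libraries it measured 715 and 483 CPM in hyperoxia and 507 and 606 CPM in normoxia (0.11, SE 0.16, adjusted p = 0.687). The 715 CPM came from the library that stood apart, and without it the change was -0.21 (adjusted p = 0.523).

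AKR1B10 overlapped between oxygen exposures outside the vehicle arm. With ATRA it measured 2465, 2229 and 2356 CPM in hyperoxia and 2428, 2035 and 2370 CPM in normoxia (log2 fold change 0.04, 95% interval -0.15 to 0.24). In untreated libraries it measured 4117 and 3482 CPM in hyperoxia and 3500 and 3830 CPM in normoxia (0.05, 95% interval -0.20 to 0.31). Without the library that stood apart, which gave the 4117 CPM, the change was -0.078 (adjusted p = 0.837).

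AKR1C2, which inactivates dihydrotestosterone, and AKR1C3, which makes testosterone and prostaglandin F2 alpha, did not pass edgeR's test in any oxygen comparison. AKR1C2 ranged from 1163 to 1996 CPM over the 14 libraries and its log2 fold changes were -0.28, -0.21 and -0.13 with vehicle, ATRA and no treatment. AKR1C3 ranged from 863 to 1630 CPM, and its changes were 0.05, 0.04 and 0.22 in the same order. The 1630 CPM came from the library that stood apart, without which the untreated change of AKR1C3 was -0.025 (adjusted p = 0.958) and that of AKR1C2 was -0.24 (adjusted p = 0.484).

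**Figure D2:**
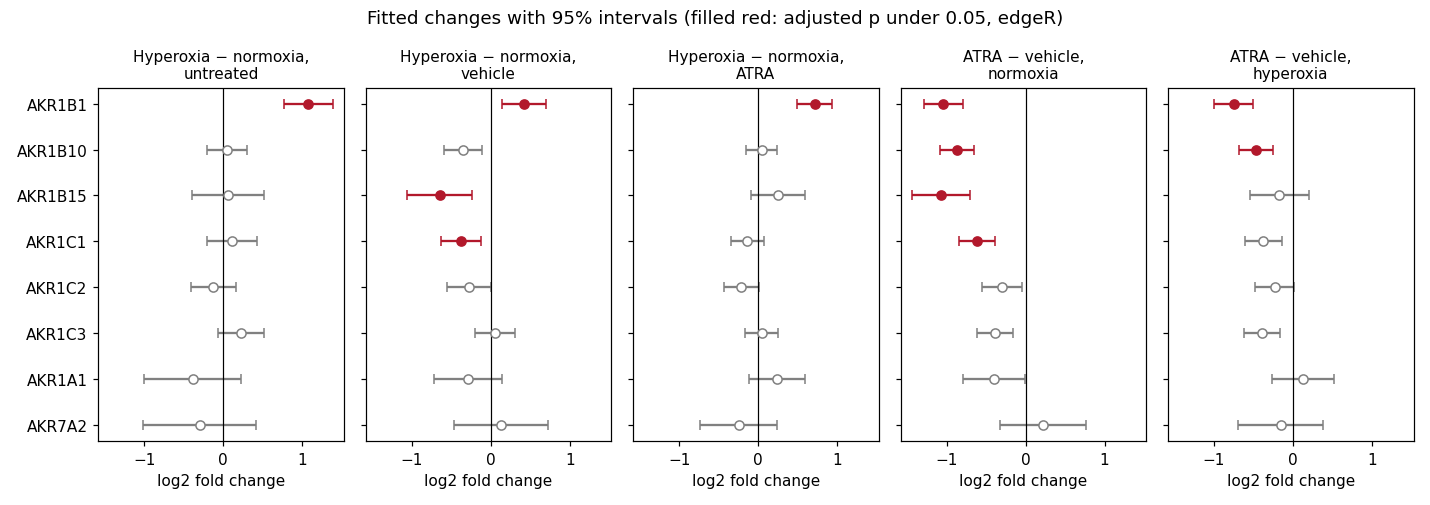
Log2 fold change of the 8 reductases (x axis) with approximate 95% intervals in 5 comparisons, from edgeR. Filled red points have an adjusted p under 0.05 and open grey points do not. The intervals treat the SE as normal and are narrower than the F test implies. That of AKR1C2 for oxygen with vehicle (-0.553 to -0.002) left out 0 at an unadjusted p of 0.0617 from edgeR's quasi-likelihood test. AKR1B1 lies above 0 in the 3 oxygen comparisons (0.42 to 1.08) and below 0 in both ATRA comparisons (-1.05 and -0.75).

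The relation between the neighbouring genes AKR1B1 and AKR1B10 was followed as a count ratio within each library, a measure that needs no scaling between libraries. The ratio was 0.628 ± 0.086 (SD, n = 2) in hyperoxia and 0.368 ± 0.013 (SD, n = 2) in normoxia with vehicle. It was 0.519 ± 0.072 (SD, n = 3) and 0.325 ± 0.034 (SD, n = 3) with ATRA, and 0.558 ± 0.098 (SD, n = 2) and 0.271 ± 0.033 (SD, n = 2) in untreated libraries. The lowest hyperoxia library, at 0.442, was above the highest normoxia library, at 0.377.

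**Figure D3:**
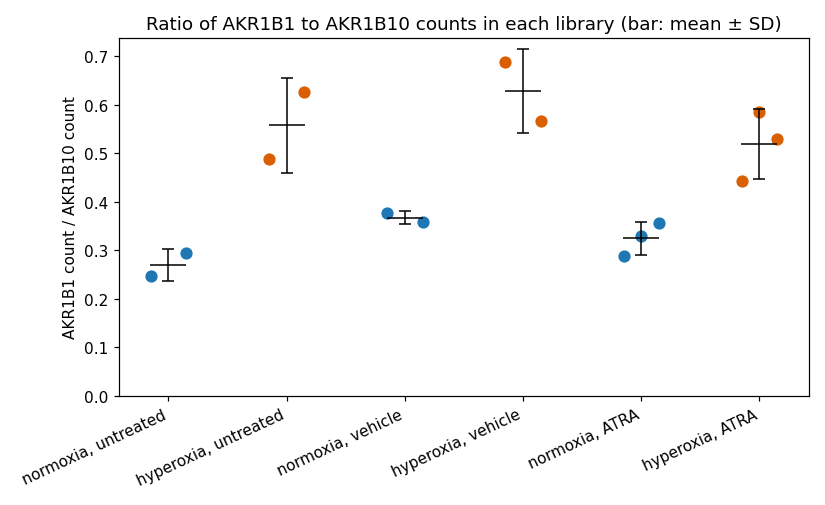
AKR1B1 count divided by AKR1B10 count (y axis, from 0) in each library by group (x axis); points are libraries, bars the mean ± SD of 2 or 3 libraries, blue normoxia and orange hyperoxia. Hyperoxia libraries lie between 0.442 and 0.689 and normoxia libraries between 0.247 and 0.377, with no overlap.

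The second question was what ATRA did at each oxygen exposure. In normoxia 4 of 8 members fell with ATRA, namely AKR1B1, AKR1B10, AKR1B15 and AKR1C1, while 1.25% of all genes were called, 0.816% higher and 0.435% lower. The median change of the 8 was -0.51 against 0.00 over all genes, and 7 of the 8 lay below 0. The ATRA comparisons share the vehicle libraries with the vehicle oxygen comparison.

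AKR1B1 measured 699, 671 and 844 CPM with ATRA and 1517 and 1531 CPM with vehicle in normoxia. All ATRA libraries were below both vehicle libraries, with a log2 fold change of -1.05 (SE 0.13), or 2.06-fold lower (adjusted p = 5.80e-05 from edgeR). The untreated normoxia libraries, at 865 and 1126 CPM, lay between them. Against those libraries in place of vehicle the change was -0.43 (adjusted p = 0.448), and the call was lost. Vehicle exceeded untreated in normoxia by 0.61 (SE 0.16, unadjusted p = 0.00127, adjusted p = 1). In that added comparison edgeR called 0 of 15339 genes, with 133 at an unadjusted p under 0.05, and no other tool was run. The same comparison in hyperoxia called 1 gene, 0.00652% of those tested and no member, with AKR1B1 at -0.04 (SE 0.16). Both were added after the data were seen.

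AKR1B10 measured 2428, 2035 and 2370 CPM with ATRA and 4026 and 4271 CPM with vehicle in normoxia. The groups lay apart, with a log2 fold change of -0.86 (SE 0.11), or 1.82-fold lower (adjusted p = 9.04e-05). Its call held in 20 of 20 alternatives, and with untreated libraries as controls (3500 and 3830 CPM) it was -0.69 (adjusted p = 0.0115).

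AKR1B15 measured 137, 78.3 and 155 CPM with ATRA against 245 and 275 CPM with vehicle. All ATRA libraries were lower, 1 of them well below the others. The overlapping model LOC105375520 held 10.9%, 11.2% and 5.39% as many counts as AKR1B15 with ATRA, and 2.98% and 2.64% with vehicle. The log2 fold change of AKR1B15 was -1.07 (SE 0.19, adjusted p = 0.00317 from edgeR), and against untreated libraries it was -0.64 (adjusted p = 0.476). Without normoxia vehicle replicate 2 it was -0.98 and missed the threshold (adjusted p = 0.0943).

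AKR1C1 measured 385, 422 and 469 CPM with ATRA against 642 and 663 CPM with vehicle, with no overlap. Its log2 fold change was -0.62 (SE 0.12, adjusted p = 0.00620). Added to AKR1C2 it changed by -0.37 (adjusted p = 0.220), and against untreated libraries by -0.39 (adjusted p = 0.695). Leaving out normoxia vehicle replicate 1 or 2 lost the call (adjusted p = 0.0732 and 0.134).

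The near copy AKR1C2 measured 1378, 1552 and 1740 CPM with ATRA against 1912 and 1916 CPM with vehicle, a log2 fold change of -0.30 (SE 0.13, adjusted p = 0.470). AKR1C3 measured 964, 863 and 1060 CPM against 1307 and 1204 CPM (-0.38, SE 0.12, adjusted p = 0.157). Both had every ATRA library below both vehicle libraries without passing edgeR's test, while DESeq2 called AKR1C3 (-0.38, adjusted p = 0.00423) but not AKR1C2 (adjusted p = 0.156). The ratio of AKR1C2 to AKR1C1 counts was 3.66 ± 0.069 (SD, n = 3) with ATRA and 2.93 ± 0.061 (SD, n = 2) with vehicle in normoxia, and how reads of the pair were divided was not tested.

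In hyperoxia 2 of 8 members fell with ATRA, AKR1B1 and AKR1B10, while 2.21% of all genes were called, 1.52% higher and 0.695% lower. The median change of the 8 was -0.30 against 0.00 over all genes, with 7 of 8 below 0. These libraries share none with the normoxia ATRA comparison. Of the epithelial markers 4 of 5 were called higher with ATRA in hyperoxia, and their part in the results was not tested.

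AKR1B1 measured 1090, 1304 and 1246 CPM with ATRA against 2227 and 1854 CPM with vehicle in hyperoxia. No values overlapped, and the log2 fold change was -0.75 (SE 0.13), or 1.68-fold lower (adjusted p = 0.00131 from edgeR). The untreated hyperoxia libraries, at 2010 and 2185 CPM, were close to vehicle, and against them the change was -0.79 (adjusted p = 0.0198). Without the untreated library that stood apart it was -0.85 (adjusted p = 0.0311). Leaving out hyperoxia vehicle replicate 1 lost the call (-0.62, adjusted p = 0.0906).

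AKR1B10 measured 2465, 2229 and 2356 CPM with ATRA against 3232 and 3269 CPM with vehicle. The log2 fold change was -0.47 (SE 0.11, adjusted p = 0.0252), smaller than in normoxia, and it was called in 13 of 20 alternatives. Leaving out either vehicle library lost the call (adjusted p = 0.223 without replicate 1 and 0.225 without replicate 2), as did leaving out any of the 3 hyperoxia ATRA libraries (adjusted p = 0.05003 to 0.0950). The fold change itself stayed between -0.50 and -0.45 with any 1 of the 10 libraries left out.

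AKR1C1 measured 415, 358 and 385 CPM with ATRA against 491 and 512 CPM with vehicle in hyperoxia (log2 fold change -0.37, SE 0.12, adjusted p = 0.120). AKR1C3 measured 919, 1042 and 1015 CPM against 1261 and 1336 CPM (-0.39, SE 0.12, adjusted p = 0.0977). Neither gene overlapped between groups, and DESeq2 called both (adjusted p = 0.0124 and 0.00268), but edgeR did not. AKR1C2 measured 1465, 1163 and 1403 CPM against 1457 and 1700 CPM (-0.23, SE 0.13, adjusted p = 0.448) and overlapped.

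AKR1B15 measured 135, 162 and 146 CPM with ATRA against 147 and 184 CPM with vehicle in hyperoxia. The groups overlapped, with a log2 fold change of -0.17 (SE 0.19, adjusted p = 0.771).

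Whether the ATRA effect differed between oxygen exposures was tested as an interaction. By edgeR 0 of 8 members passed, while 0.14% of all genes (21 genes) were called, 0.1% with a positive difference and 0.0401% with a negative one. At an unadjusted p under 0.05 there were 2 members, and 1078 of the 14957 genes tested. The member with the smallest p was AKR1B15, whose ATRA change was less negative in hyperoxia by 0.90 (SE 0.27, unadjusted p = 0.00328, adjusted p = 0.346). For AKR1B10 the difference was 0.40 (SE 0.16, unadjusted p = 0.0203, adjusted p = 0.574). DESeq2 called both (AKR1B10 0.40, adjusted p = 0.0236; AKR1B15 0.91, adjusted p = 0.0460). For AKR1B1 the difference was 0.30 (95% interval -0.06 to 0.65), and for AKR1C3 it was -0.01 (95% interval -0.33 to 0.32).

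**Figure D4:**
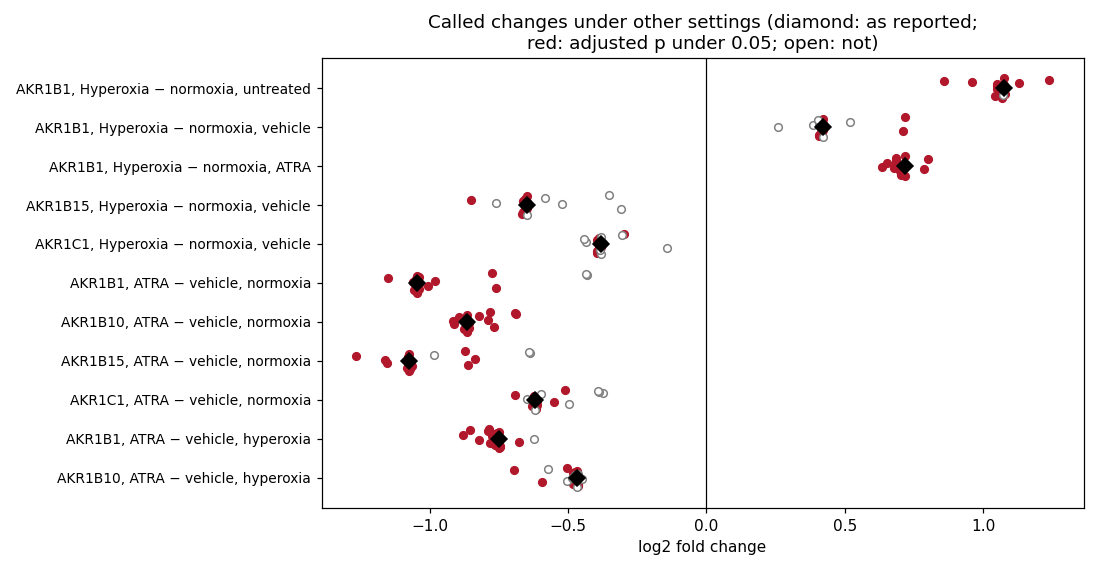
Log2 fold change (x axis) of the 11 called member results under other settings; black diamonds are the values as reported, red points are alternatives with an adjusted p under 0.05 and open points alternatives without. AKR1B1 with ATRA in both arms (0.63 to 0.80) and AKR1B10 with ATRA in normoxia (-0.91 to -0.69) were called in every alternative run.

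AKR1A1, an aldehyde reductase of general metabolism, and AKR7A2, which reduces succinic semialdehyde and aflatoxin dialdehyde, were the least expressed members and passed no test. AKR1A1 ranged from 19.97 to 50.9 CPM with a median of 42.4 CPM, and AKR7A2 from 12.8 to 26.1 CPM with a median of 19.8 CPM. For both, the lowest value came from the untreated hyperoxia library that stood apart. In untreated libraries AKR1A1 changed by -0.39 (adjusted p = 0.429) and AKR7A2 by -0.30 (adjusted p = 0.608), and without that library by 0.088 and 0.020. With ATRA in normoxia, AKR1A1 measured 39.1, 29.02 and 43.98 CPM against 48.3 and 50.9 CPM with vehicle (log2 fold change -0.41, SE 0.20, adjusted p = 0.600). The standard errors of AKR7A2 were between 0.25 and 0.37 in the oxygen and ATRA comparisons. AKR7L, a relative of AKR7A2 that shares 8.01% of its 50-base stretches, ranged from 6.19 to 50.9 CPM.

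Among other genes of the same pathways, NRF2 targets outside the family went both ways with oxygen. Of 35 tested, 10 were called higher and 8 lower in hyperoxia with vehicle (8.68% and 8.81% of all genes), with a median change of -0.02 against 0.01 over all genes. PTGR1, a reductase of prostaglandins and alkenals, rose by 1.73 and HMOX1, heme oxygenase, by 1.47 on the log2 scale, whereas GPX2, a glutathione peroxidase, fell by 1.38. With ATRA in both arms 12 were higher and 8 lower (11.4% and 11.3% of all genes). In untreated libraries 11 were higher and 7 lower (7.57% and 7.58% of all genes). Of 10 genes that control NRF2, 3 rose and 0 fell with vehicle, among them SQSTM1 (2.26), which sequesters KEAP1. With ATRA in both arms 4 of them rose, and in untreated libraries 5 rose, against the same shares of all genes. None of the 10 was called lower in these comparisons, and for 10 genes 0 is near those shares.

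With ATRA in normoxia, where 0.435% of all genes were called lower, 8 of the 35 NRF2 targets fell and 0 rose by edgeR, among them ALDH3A1 (-1.005), PTGR1 (-0.83) and SRXN1 (-0.71), with a median of -0.25. With ATRA in hyperoxia, where 0.695% of all genes were called lower and 1.52% higher, 5 fell and 3 rose, with a median of -0.25. PTGR1 (-0.87), FTL (-0.63) and OSGIN1 (-0.90) fell, and IDH1 (0.73), CES1 (1.13) and GPX2 (0.59) rose. Against vehicle, AKR1B1, AKR1B10 and PTGR1, which is 1 of the 35 targets, were each called lower with ATRA at both oxygen exposures. AKR1B1 in normoxia was not called against untreated libraries, and AKR1B10 in hyperoxia was called in 13 of 20 alternatives. Of the 10 control genes 0 were called with ATRA in normoxia, and SQSTM1 (-0.66) fell in hyperoxia.

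Of 22 other genes of retinoid oxidation and reduction, 13 were tested. With ATRA, CYP26B1, which breaks down retinoic acid, rose by 3.70 in normoxia and 4.13 in hyperoxia. DHRS3, which reduces retinal as AKR1B10 does, rose by 1.63 and 1.86, opposite in sign to AKR1B1 and AKR1B10 in the same libraries. ALDH1A3, which makes retinoic acid from retinal, rose by 0.99 in hyperoxia. No gene of the list was called lower with ATRA, but only 0.435% of all genes were in normoxia and 0.695% in hyperoxia. For 13 genes, 0 is therefore near the share of all genes.

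Among 7 polyol and osmotic genes, which share substrates or control with AKR1B1, 6 were tested. With vehicle, SLC6A6, the taurine transporter, rose by 1.17 in hyperoxia and NFAT5, the osmotic transcription factor, by 0.54, where 8.68% of all genes were called higher. With ATRA in both arms 2 rose in hyperoxia, HSPA4L (0.83) and SLC6A6 (0.50), against 11.4% of all genes. SORD (-1.19), which oxidizes the sorbitol that AKR1B1 makes, was the 1 that fell, against 11.3%. In untreated libraries 1 of 6 rose, SLC6A6 (1.16), against 7.57% of all genes, and 3 of 6 lay below 0. Without the untreated library that stood apart, 2 of 7 rose. SLC6A6 fell with ATRA in hyperoxia (-0.83).

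Steroid and prostaglandin genes bear on the substrates of the AKR1C enzymes. Of 12 tested steroid genes, HSD17B1 rose (1.42) and HSD17B4 (-0.92) and HSD17B11 (-1.43) fell in hyperoxia with vehicle, and STS rose with ATRA at both exposures (1.35 and 1.25). Of 9 tested prostaglandin genes, 1 rose and 3 fell in hyperoxia with vehicle, including HPGD (-1.34). In that comparison 8.68% of all genes were called higher and 8.81% lower. With ATRA in normoxia 1 rose, PTGES (1.69), a prostaglandin E synthase, and 3 fell, PTGR1 (-0.83), HPGD (-1.02) and PTGS2 (-0.86). There 0.816% of all genes were called higher and 0.435% lower. With ATRA in hyperoxia PTGES rose (1.78) and PTGR1 fell (-0.87). Of 13 other carbonyl-clearing enzymes, 1 rose and 2 fell in hyperoxia with vehicle, a share near the 17.5% of all genes called there. With ATRA 0 were called at either exposure by edgeR, against 1.25% of all genes in normoxia and 2.21% in hyperoxia. Of 17 other members of the superfamily, 11 were in the files and 5 were tested, and 0 of these were called in any comparison. In the oxygen and ATRA comparisons 1.25% to 22.7% of all genes were called, so 0 of 5 shows no difference from all genes.

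The genes whose pattern over the 14 libraries was most like a member's were ranked by the root mean square difference of centred log2 CPM. For AKR1B10 they included AKR1C1 (0.150) and PYGB (0.154), and for AKR1C1 they were PSMB6 (0.137), PYGB (0.140) and AKR1C2 (0.148). For AKR1B15 they included FASN (0.226) and AKR1B10 (0.231). AKR1B1 was nearest to IER3 (0.228), SHC1 (0.229) and SFN (0.235), and its nearest relative, AKR1C3 (0.423), ranked 486 among 15339 genes. AKR1C2 was nearest to ATP5F1B (0.093), ZFAND5 (0.111) and ACACA (0.125), and AKR1C3 to YWHAG (0.090), MSL1 (0.111) and VDAC2 (0.129). AKR1A1 was nearest to BCS1L (0.162), EML1 (0.163) and GPS1 (0.166), and AKR7A2 to MCTS1 (0.159), SCAND1 (0.160) and ECE1 (0.163). The nearest member ranked 14 for AKR1C2, 54 for AKR1C3, 351 for AKR1A1 and 391 for AKR7A2. The points share libraries, depth and scaling, and reads of near copies can be misassigned or left out of the counts.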

How the data were processed

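The authors trimmed reads with Trimmomatic 0.38 (reads under 50 nt discarded), used HISAT2 for alignment (build hg38) and HTSeq for gene counts. The deposited values are whole-number counts per gene symbol, not normalized, for 15 libraries. The library kit kept strand, while the strand setting and annotation of the counting are not given in the sources used here. TALAM1, antisense to MALAT1, had 1.87 to 2.01 times its counts, and reads on no feature were the largest class, so the counting may have used the opposite strand. If so, every count and CPM here measures reads on the strand opposite to the gene's own. This was not settled. Entries naming no gene were left out, and counts on genes were 21.6% to 24.8% of all reads (no feature, 48.6% to 55.3%). Reads without a unique alignment, 7.83% to 8.91% in the 14 libraries with a group, were among the entries left out.

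Groups came from the labels. Genes with enough counts (edgeR filterByExpr, minimum count 10, minimum total 15) were fitted with edgeR 4.0.16 in R 4.3.3 by TMM normalization and the quasi-likelihood test: 10 libraries in 4 groups (14957 genes), or 14 libraries in 6 groups (15339 genes) for untreated and vehicle-against-untreated comparisons. P-values were adjusted over all genes (Benjamini-Hochberg, threshold 0.05), and an SE is the absolute log2 fold change over the root of F. The intervals treat this SE as normal, so they are approximate and narrower than the F test implies. Log2 CPM used a prior count of 2. Normalized CPM came from the deposited counts. The fit was tested on simulated data. Alternatives were DESeq2 1.42.0, RLE size factors, no filter, other sets of libraries, pooled vehicle and untreated controls, summed AKR1C1 and AKR1C2, and leaving out each library. Within each list and comparison, up to 3 called genes per direction with the smallest p were eligible to be named, and the 3 most alike genes per member, of which 1 gene is not reported here. The members, lists and tests were chosen with earlier results of these data known. Of the libraries, 1 had no group and entered no comparison.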

Additional observations from a re-analysis of the deposited data

How the results depend on the processing

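Of the members' log2 fold changes recomputed under other settings, 787 kept their direction and side of the threshold, 42 lost a call, 18 gained one and 33 turned direction, and the cause was not tested where a result changed. Fitting all 14 libraries gave 0 members and 1420 genes called for oxygen with vehicle, 1975 genes for oxygen with ATRA, 70 for ATRA in normoxia, 1 member and 116 genes for ATRA in hyperoxia, and 4 genes for the interaction. Fitting only the groups compared gave 5 members and 4665 genes for oxygen with vehicle, and 0 members and 58 genes by edgeR in untreated libraries (DESeq2 on 14 libraries called 1 member). Without a filter 300 genes were called for ATRA in normoxia, 522 for ATRA in hyperoxia, and 91 with 1 member for the interaction. DESeq2 called 4 members for ATRA in hyperoxia, and 2 members and 94 genes for the interaction. Apart from leaving out 1 library at a time, the alternatives called 1420 to 4665 genes for oxygen with vehicle. They called 67 to 364 genes for ATRA in normoxia and at most 522 for ATRA in hyperoxia. The member counts of these alternatives are to be read against those gene counts.

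With vehicle and untreated libraries pooled, 1 member was called for oxygen with AKR7A2 at -0.069, 182 genes for ATRA in hyperoxia with AKR7A2 at 0.016, and 5 genes for the interaction with AKR1B1 at -0.020, AKR1C1 at -0.022 and AKR1C2 at -0.032. Without untreated hyperoxia replicate 1 the pooled fits called 4553 genes for oxygen and 364 for ATRA in normoxia, and the interaction was -0.011 for AKR1B1 and 0.011 for AKR1C3. With untreated libraries as controls, and wherever untreated hyperoxia replicate 1 was left out of such fits, the choice was made after seeing the data. With these controls 1 member and 67 genes were called for ATRA in normoxia and 66 genes in hyperoxia, with AKR7A2 at 0.24; without untreated hyperoxia replicate 1 the counts were 1 member in normoxia, and 1 member and 29 genes in hyperoxia. With AKR1C1 and AKR1C2 summed the untreated oxygen change was -0.071.

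Leaving out 1 library at a time gave 0 to 4 members and 1386 to 3175 genes for oxygen with vehicle (AKR1C3 -0.033 to 0.079, AKR7A2 -0.14 to 0.33), AKR1B10 -0.030 to 0.093 and AKR1C3 -0.030 to 0.10 for oxygen with ATRA, and 2 to 4 members and 56 to 267 genes for ATRA in normoxia. It gave 0 to 3 members and 83 to 449 genes for ATRA in hyperoxia (AKR7A2 -0.38 to 0.085), and 4 to 28 genes for the interaction (AKR1C2 -0.046 to 0.18, AKR1C3 -0.079 to 0.052). In untreated libraries, where leaving out hyperoxia replicate 1 turned AKR1A1, AKR1B10, AKR1C1, AKR1C3 and AKR7A2, it gave 1 to 2 members and 969 to 7364 genes, with AKR1A1 -1.10 to 0.088, AKR1B10 -0.078 to 0.11, AKR1B15 -0.15 to 0.22, AKR1C1 -0.21 to 0.31, AKR1C3 -0.025 to 0.37 and AKR7A2 -0.74 to 0.020. No paired analysis was possible because the labels carry library identifiers and no replicate numbers. AKR1A1 and AKR7A2 had the lowest counts of the members, and what depth contributed to their errors was not tested. Where a library left out leaves 1 in its arm, that library is assumed to vary like the other groups.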

Other observations

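A further library carries a title that names hyperoxia and a treatment label that names adipogenic differentiation, and it was put in no group. It measured 2071 CPM for AKR1B1, 3805 for AKR1B10, 219 for AKR1B15, 565 for AKR1C1, 1807 for AKR1C2, 1456 for AKR1C3, 48.2 for AKR1A1 and 21.8 for AKR7A2. Each value lay within the range of the 8 vehicle and untreated libraries. The adipocyte genes ADIPOQ, PLIN1, FABP4, LEP and LPL had 0 counts in it.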
